A study of Mus musculus with 46 samples.

Results

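The mouse mitochondrial genome, written here as chrM, held 37 of the 53465 genes in the deposited expression table. All 37 were taken, by the chromosome given for each gene and by no measured value. They were 2 ribosomal RNA (rRNA) genes, 22 transfer RNA (tRNA) genes and 13 protein genes. The other 53428 genes lie outside chrM.

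Kidneys came from adult male wild-type C57BL/6 mice given sham surgery, unilateral ureteric obstruction (UUO), or UUO followed by reimplantation of the ureter to reverse it (rUUO). The design text names UUO of 2 days and of 7 days, but the sample labels do not say which day a given UUO sample comes from. 4 populations were sorted by flow cytometry with 1 surface label each. Proximal tubule (PT) cells bound the lectin LTL, macrophages carried F4/80, endothelial cells carried CD31 and stromal cells carried PDGFRB. The sham, UUO and rUUO groups held 3, 4 and 3 samples of PT cells, 4, 4 and 3 of macrophages, 4, 3 and 4 of endothelial cells and 4, 4 and 4 of stromal cells. Samples are named by their label numbers, which run to 6 in rUUO. The labels do not say that each sample is a different mouse, so the p-values measure the spread between these samples. Values were FPKM, fragments per kilobase of gene, scaled to a fixed number of mapped fragments. They summed to between 586929 and 884982 per sample over all genes. No read counts were used, so absolute depth was unknown, and relative depth, read from the smallest steps in the values, ran from 0.584 to 1.596 around a typical sample of 1.

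Mitochondria carry a small circular genome of their own. Nearly all of it is copied from both strands as long transcripts, and tRNAs that lie between the other genes are cut out to free the rRNAs and mRNAs. The rRNAs build the mitochondrial ribosome, and all 13 proteins are subunits of the oxidative phosphorylation complexes in the inner membrane. Complex I (NADH dehydrogenase), complex III (cytochrome bc1), complex IV (cytochrome c oxidase) and complex V (ATP synthase) mix these subunits with others made from nuclear genes, while complex II is wholly nuclear. PT cells reabsorb most of the filtered solutes and are among the cells richest in mitochondria, and obstruction damages them.

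Each sorted population carried its own markers. The summed FPKM of 6 PT markers, among them Lrp2 and Slc34a1, ran from 1691 to 2302 in PT sham and from 34.6 to 288 in the other sham populations. Macrophage markers summed to 3791 or more in every macrophage sample and to at most 46.1 elsewhere. Endothelial and stromal markers were likewise highest in their own populations. T cell markers Cd3e and Cd3d were at 0 in all 3 PT sham samples. These are bulk samples, in which fewer cells of a type and less RNA per cell cannot be told apart.

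The 22 tRNA genes were listed at 0 FPKM in every one of the 44 samples. They are 59 to 75 bases long, and a gene listed at 0 here is not shown to lack RNA. One tRNA gene is shown to give its scale, mt-Tv (tRNA for valine, chrM:1025-1093, plus strand, GENCODE M21 annotation on GRCm38), which sits directly after the 12S rRNA gene. Sequence is written 5′ to 3′.
mt-Tv: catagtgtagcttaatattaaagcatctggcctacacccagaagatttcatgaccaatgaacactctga

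The other 15 genes were above 0 in all 44 samples, and all 15 passed the filter of a mean of 1 FPKM. Their coordinates in the table were those of GENCODE M21 on GRCm38 for all 37 genes. The rRNA genes are mt-Rnr1 (12S rRNA, 955 bases) and mt-Rnr2 (16S rRNA, 1582 bases), and the protein genes run from 204 to 1824 bases. Only mt-Nd6 among the protein genes is on the minus strand, and 8 tRNA genes are.

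Neighbouring genes share bases, and reads from such a stretch cannot be given to either gene with certainty. mt-Atp8 and mt-Atp6, both subunits of ATP synthase, share 43 bases at chrM:7927-7969, and mt-Nd4l and mt-Nd4 of complex I share 7 at chrM:10167-10173. mt-Nd5 and mt-Nd6 overlap by 14 bases at chrM:13552-13565 on opposite strands. The library kit is not stated to keep strand, so mt-Nd6 cannot be told apart from antisense RNA of its partner strand. The ends of mt-Atp8 and mt-Nd4l are shown with the shared bases in capitals.
mt-Atp8, chrM:7910-7969: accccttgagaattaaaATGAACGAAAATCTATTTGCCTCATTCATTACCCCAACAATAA
mt-Nd4l, chrM:10144-10173: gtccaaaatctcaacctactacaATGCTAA

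Several protein genes also have near-identical nuclear copies. The annotation lists 7 unprocessed pseudogenes on the minus strand of chromosome 1, between 24611535 and 24616197. Gm28437 matched the first 783 bases of mt-Co3 with no mismatch, Gm10925 the first 678 of mt-Atp6, Gm28661 the first 681 of mt-Co2, Gm10222 the first 294 of mt-Nd4l and Gm28439 the first 876 of mt-Nd4. A fragment that lies wholly within such a stretch matches both places equally well, so how it is split within the pair rests on the authors' estimation and not on a base in the read. Gm13340 and Gm13341 lie elsewhere, on the minus strand of chromosome 2 (22588103-22589647 and 22587291-22587962). They are 1545 and 672 bases long and were not aligned here, so any split of fragments with them is not described. The starts of the mt-Co3 and mt-Atp6 pairs are shown, and their split is described by sample below. The values of mt-Co2, mt-Nd4l and mt-Nd4 rest on such a split too, which is not described by sample.
mt-Co3, chrM:8607-8666: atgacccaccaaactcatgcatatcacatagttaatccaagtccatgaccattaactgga
Gm28437, chr1:24613912-24613971: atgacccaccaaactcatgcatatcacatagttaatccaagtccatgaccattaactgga
mt-Atp6, chrM:7927-7986: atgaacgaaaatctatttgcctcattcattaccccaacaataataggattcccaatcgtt
Gm10925, chr1:24614592-24614651: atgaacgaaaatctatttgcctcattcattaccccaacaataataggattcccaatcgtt

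The other 2 copies differ from their gene, counting positions from 1 at the 5′ end of the chrM gene and giving the chrM base first. Gm28438 differed from mt-Nd3 at T3C, and 344 of 345 aligned bases were the same. A fragment within the aligned stretch that does not reach this base matches both places, so mt-Nd3 values rest on the split as well. Gm29216 covered bases 1054 to 1545 of mt-Co1 with 486 of 492 the same. It differed at T1056A, C1057T, A1059G, A1060G, C1062A and A1066T. After base 1066 the aligned stretch holds no mismatch. A fragment wholly within that part matches both places, so mt-Co1 values rest in part on the split too. Capitals mark the mismatches.
mt-Nd3, chrM:9459-9518: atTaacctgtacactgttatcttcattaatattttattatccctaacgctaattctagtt
Gm28438, chr1:24613060-24613119: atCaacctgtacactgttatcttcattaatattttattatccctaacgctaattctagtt
mt-Co1, chrM:6381-6440: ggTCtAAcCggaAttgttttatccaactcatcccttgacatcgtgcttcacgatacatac
Gm29216, chr1:24616138-24616197: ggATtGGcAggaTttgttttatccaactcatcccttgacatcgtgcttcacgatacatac

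The chrM genes took most of the FPKM of PT cells. The share was 70.8, 68.9 and 75.6% in PT sham samples 1, 2 and 4 (71.7 ± 3.45%, SD, n = 3). It was 24.8, 24.9, 28.0 and 24.6% in macrophage sham, 34.0, 32.5, 40.8 and 43.5% in endothelial sham and 35.3, 34.0, 34.9 and 45.8% in stromal sham. PT cells lay above every sample of the other populations, macrophages lay below the rest, and the endothelial and stromal ranges overlapped. PT sham exceeded macrophage sham by 46.2 percentage points, endothelial sham by 34.0 and stromal sham by 34.3. Each of these 3 differences had p = 0.0286, also after Benjamini-Hochberg adjustment over the 3, in an exact two-sided permutation test, and this is the smallest p the sample numbers allow.

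**Figure D1:**
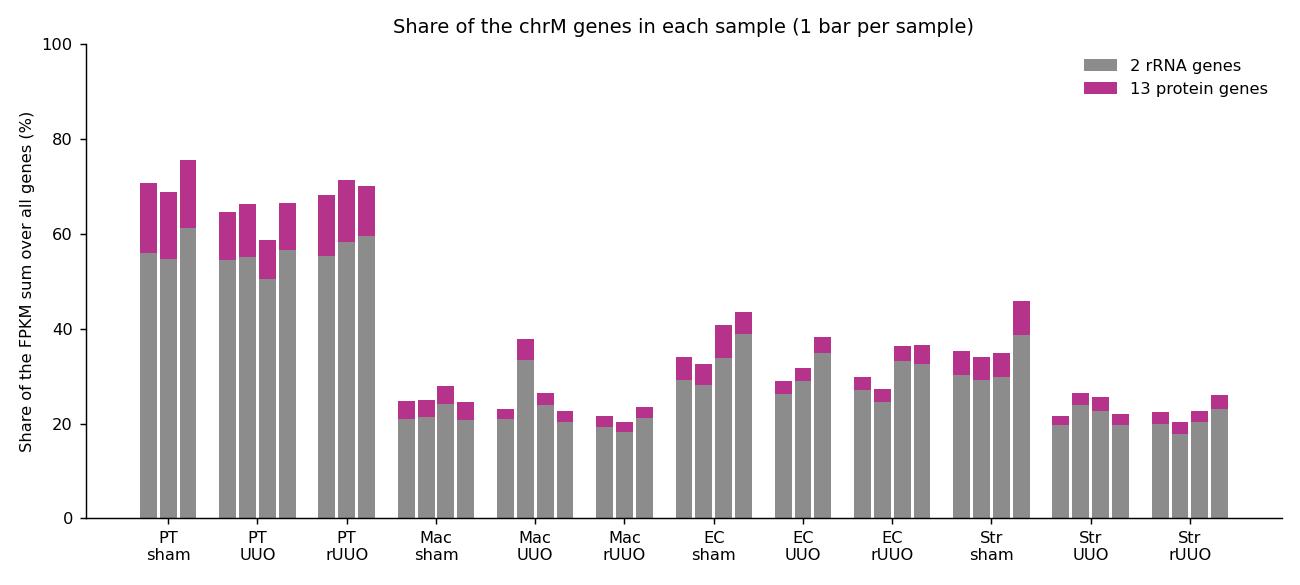
Share of the FPKM sum over all genes taken by the 2 rRNA genes (grey) and the 13 protein genes (magenta) of chrM, in percent, with 1 bar per sample of the 12 groups in order of sample number. PT samples sit between 58.7 and 75.6% and all other samples between 20.2 and 45.8%.

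By limma on log2(FPKM + 1), with adjustment over all genes tested, all 15 detected chrM genes were higher in PT sham than in macrophage, endothelial and stromal sham. Of all genes tested, 12.6% were called higher against macrophages, 8.73% against endothelial cells and 7.89% against stromal cells. The median log2 difference of the 15 genes was 2.27, 1.88 and 1.80, against −0.90, −0.93 and −1.06 for all genes tested. FPKM are relative, and the genes outside chrM summed to 0.442, 0.568 and 0.607 times as much in PT sham as in the other populations, as ratios of means. With FPKM rescaled to the same sum outside chrM the 15 genes were again called higher against each population. For the rRNAs the log2 differences were 1.06 to 1.70, and quantile normalization turned mt-Rnr2 to −0.069 against endothelial and against stromal cells. Rescaled to the same chrM sum, mt-Rnr1 was at −0.015 and −0.021 against macrophages and endothelial cells, and mt-Rnr2 at −0.18, −0.20 and −0.22 against the 3 populations. mt-Nd2, a complex I subunit, and mt-Nd6 differed most, by 2.95 (SE 0.23, adjusted p = 6.3e-09) and 2.93 (SE 0.28, adjusted p = 7.44e-08) against macrophages.

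As group means in sham, the protein genes summed to 125060 FPKM in PT cells, 28156 in macrophages, 36128 in endothelial cells and 36096 in stromal cells. PT cells thus held 4.44 times the macrophage sum, 3.46 times the endothelial sum and 3.46 times the stromal sum. For the rRNAs the same ratios were 3.06, 2.18 and 2.39. The rRNA share of the chrM sum was accordingly lowest in PT sham, at 79.0, 79.4 and 81.1% (79.8 ± 1.10%, SD, n = 3), and was 85.2 ± 1.16% in macrophage, 86.2 ± 2.48% in endothelial and 85.3 ± 0.698% in stromal sham (SD, n = 4 each). No PT sham sample reached the 83.1% of the lowest sample in those 3 groups. The differences were −5.33, −6.36 and −5.46 percentage points, with exact two-sided permutation p = 0.0286, 0.0571 and 0.0286 and adjusted p = 0.0429, 0.0571 and 0.0429.

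**Figure D2:**
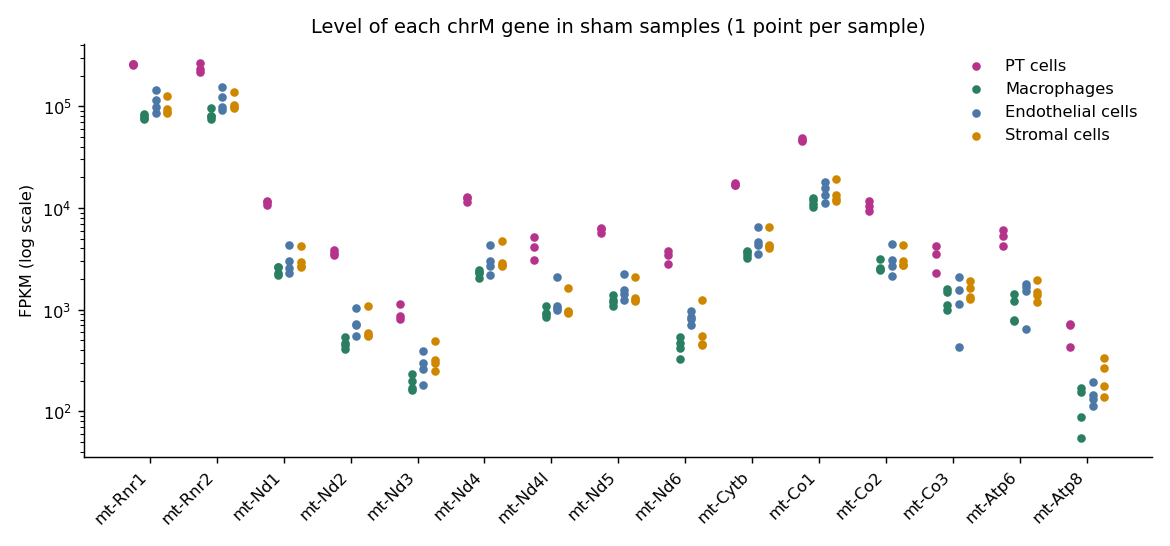
FPKM on a log scale of the 15 chrM genes above 0 in each sham sample, 1 point per sample, coloured by population. Within each sample the rRNA genes lie above every protein gene and mt-Co1 is the highest protein gene, and for all 15 genes the PT samples lie above the other sham samples.

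mt-Rnr1 and mt-Rnr2 ranked between 1 and 3 among all genes in every sample. Among the protein genes mt-Co1, the catalytic subunit of cytochrome c oxidase, was the highest in each sample, with 45274 to 48518 FPKM in PT sham, 10224 to 12580 in macrophage sham, 11074 to 17908 in endothelial sham and 11805 to 19318 in stromal sham. mt-Cytb, the cytochrome b of complex III, was the second in PT sham, with 16700 to 17473 FPKM in PT sham and 3201 to 6533 in the other sham samples. At the low end stood mt-Atp8, with 428 to 724 FPKM in PT sham, and mt-Nd3, with 806 to 1126. These genes are all read from the same strand, yet their levels per length lay far apart. Of the protein sum, complex IV subunits took 48.5 ± 0.329% in PT sham and 54.8 ± 1.42% in macrophage sham, and complex I subunits took 33.3 ± 0.545% and 28.4 ± 0.712% (SD, n = 3 and 4).

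UUO was compared with sham within each population to ask how obstruction changed these genes. In PT cells the chrM share was 64.7, 66.2, 58.7 and 66.4% in UUO, below every sham sample and lower on average by −7.75 percentage points (exact two-sided permutation p = 0.0286, adjusted p = 0.0686 over the 12 surgery comparisons). The protein genes summed to 128595, 123022 and 123563 FPKM in sham and to 87714, 95636, 67386 and 80250 in UUO, so the groups did not overlap and the ratio of means was 0.662. The ratio for the rRNAs was 0.913.

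In PT cells 11 of the 15 chrM genes fell with UUO and none rose, beside 4.91% of all genes tested called lower and 27.9% called higher by limma. The median of the 15 was −0.60 and that of all genes 0.51. All 11 were protein genes. The largest fall was that of mt-Nd2, which stood at 3579, 3428 and 3833 FPKM in sham and at 1813, 2439, 1215 and 1874 in UUO (log2 change −1.02, SE 0.19, adjusted p = 0.00136). Every UUO sample lay below every sham sample. mt-Atp6, the proton channel subunit of ATP synthase, fell by 0.82 on the log2 scale (adjusted p = 0.0037 by limma), mt-Nd4 by 0.75 (adjusted p = 0.00416) and mt-Co1 by 0.56 (adjusted p = 0.00884).

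The rRNAs did not pass the test in PT cells. mt-Rnr1 had a log2 change of −0.25 (SE 0.12, adjusted p = 0.136 by limma) and mt-Rnr2 one of −0.02 (SE 0.13, adjusted p = 0.929). mt-Rnr2 stood at 231592, 216995 and 267375 FPKM in sham and at 241062, 243355, 216314 and 240219 in UUO, which overlap. mt-Atp8 (−0.57, adjusted p = 0.119) and mt-Co3 (−0.18, adjusted p = 0.718) were the other genes without a call. With FPKM rescaled to the same sum outside chrM mt-Rnr1 did pass by limma (−0.55, SE 0.14, adjusted p = 0.0124) and mt-Rnr2 did not (adjusted p = 0.177). There 12 genes were called with a median of −0.90, while the median of all genes moved from 0.51 to 0.26. The share of all genes called is not given for this setting or for those that follow. The count of chrM genes called was 2 with no filter on low values, 5 in a fit on all 4 populations and 7 without PT sham sample 1. Without PT UUO sample 2, whose title also names sham, it was 12. Quantile normalization, which makes the highest values of all samples equal, left 4 calls and turned mt-Nd1 to 0.023 and mt-Nd5 to 0.027.

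Markers moved with this comparison too. The 6 PT markers summed to 469 to 640 FPKM in PT UUO and 1047 to 1341 in rUUO, both below the sham range, and 5 of the 6 were called lower in UUO by limma. The 3 thick ascending limb markers, Umod, Slc12a1 and Cldn16, summed to 17.7 to 22.1 in sham, against 142 to 180 after UUO and 46.5 to 135 after reversal, with 2 of 3 called higher in UUO. Their part in the PT changes of chrM genes was not tested.

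In stromal cells both classes were lower in UUO. The chrM share was 21.5, 26.4, 25.6 and 22.1% in UUO, below every sham sample, with a difference of −13.6 percentage points (exact two-sided permutation p = 0.0286, adjusted p = 0.0686). The protein genes summed to 32063, 30511, 31932 and 49875 FPKM in sham and to 11906, 14666, 16964 and 14163 in UUO, a ratio of means of 0.400. By limma 14 of the 15 genes fell and none rose, beside 13% of all genes tested called lower and 13.4% higher, with medians of −1.26 for the 15 and −0.07 for all genes. mt-Nd6 (−0.76, adjusted p = 0.0634) was the gene without a call. Here the rRNAs fell as well, mt-Rnr1 by 0.78 (SE 0.17, adjusted p = 0.00315) and mt-Rnr2 by 0.59 (SE 0.18, adjusted p = 0.0224) on the log2 scale, although within the chrM sum mt-Rnr2 was at 0.16. Stromal sham sample 4 was the highest sham sample, and without it 13 genes were called and the median was −1.10.

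mt-Nd2 stood at 565, 591, 556 and 1098 FPKM in stromal sham and at 151, 246, 262 and 233 in UUO. The groups did not overlap (log2 change −1.62, SE 0.22, adjusted p = 5.99e-05 by limma). mt-Nd3, a small complex I subunit, stood at 250, 318, 302 and 495 FPKM in sham and at 118, 100, 26.3 and 86.1 in UUO (−2.18, SE 0.35, adjusted p = 0.000267). mt-Co2, which holds the copper centre that takes electrons from cytochrome c, stood between 2758 and 4353 FPKM in sham and between 1085 and 1324 in UUO (−1.40, SE 0.15, adjusted p = 6.54e-06).

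Tubule markers moved with this comparison. In stromal samples the 6 PT markers summed to 34.6 to 59.4 FPKM in sham and 7.6 to 12.1 in UUO, and all 5 that could be tested were called lower by limma. The 3 markers of the thick ascending limb summed to 241 to 314 in sham and 28.2 to 54.1 in UUO, and the 3 of the distal tubule and collecting duct to 128 to 297 and 1.5 to 8.0. All 3 of each list were called lower. None of these markers was at 0 in all samples of a stromal group. Neutrophil markers S100a8 and S100a9 summed to at most 0.42 in sham and to between 5.6 and 53.6 in UUO. Of the 6 stromal markers 5 were called higher, with Col1a1 at 4.01, and the sort marker Pdgfrb lower (−0.88), and their sum was 1121 to 2937 in sham and 8673 to 14530 in UUO. The part of these genes and of other cell types in the stromal fall of chrM genes was not tested.

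In macrophages the chrM share did not separate the surgeries. It was 23.1, 37.8, 26.4 and 22.6% in UUO, where sample 2 stood above all other macrophage samples, and the mean difference from sham was 1.88 percentage points (exact two-sided permutation p = 0.886). Without sample 2 it was −1.57. Protein genes summed to 25615 to 30827 FPKM in sham and to 17162, 34489, 19075 and 16714 in UUO, so 3 of the 4 UUO samples lay below all sham samples and sample 2 above them. In limma 2 genes fell and none rose, beside 2.13% of all genes called lower and 2.86% higher. They were mt-Nd3 (−1.46, SE 0.35, adjusted p = 0.0278) and mt-Co3 (−0.94, SE 0.22, adjusted p = 0.0273). At an unadjusted p under 0.05 there were 7, beside 2623 of all 13332 genes tested.

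The macrophage count rested on single samples. Without UUO sample 2 it was 9, without sham sample 1 or UUO sample 1 it was 1, and without sham sample 2, 3 or 4 it was 0. Sample 2 had 3791 FPKM of macrophage markers against 6159 to 6698 in the other UUO samples, a neutrophil marker sum of 10.7 against 29.1 to 90.2 and a relative depth of 0.771 against 0.855 to 0.983. Across the groups PT markers summed to 80.8 to 99.3 FPKM in macrophage sham and 12.7 to 25.1 in UUO, with 3 of 5 tested called lower, and T cell markers to at most 0.72 in sham and to between 1.19 and 27.4 in UUO. Neutrophil markers summed to 3.15 to 8.10 in sham and 10.7 to 90.2 in UUO, with both called higher, and distal tubule and collecting duct markers to 17.8 to 41.0 and 1.7 to 11.3, with 2 of 3 called lower. None of these 4 lists overlapped between sham and UUO, and their part in the macrophage values was not tested.

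In endothelial cells the chrM share was 29.0, 31.6 and 38.3% in UUO samples 1, 2 and 4, which overlapped with sham (difference −4.72 percentage points, exact two-sided permutation p = 0.286). The protein genes summed to 32669, 27341, 48134 and 36368 FPKM in sham and to 18359, 19470 and 24946 in UUO, with no overlap and a ratio of means of 0.579. The rRNA ratio was 0.928. By limma 3 genes fell and none rose, beside 0.702% of all genes called lower and 1.28% higher. All 3 belong to complex I, mt-Nd2 (−1.25, SE 0.23, adjusted p = 0.00872), mt-Nd3 (−1.38, SE 0.27, adjusted p = 0.013) and mt-Nd4 (−0.94, SE 0.23, adjusted p = 0.0434).

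All 13 protein genes had a negative log2 change and an unadjusted p under 0.05 in endothelial cells, and neither rRNA reached that p. Of all 13393 genes tested, 1788 had an unadjusted p under 0.05. Without sham sample 2 the count called was 5 and without UUO sample 1 it was 1. Endothelial PT markers summed to 191 to 288 FPKM in sham and 119 to 184 in UUO with none called, and thick ascending limb markers to 131 to 640 and 47.8 to 168 with 1 of 3 called lower. Sham sample 3, with the highest protein gene sum, also had the highest sums of PT (288), thick ascending limb (640) and distal (227) markers, and the part of these cells was not tested.

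**Figure D3:**
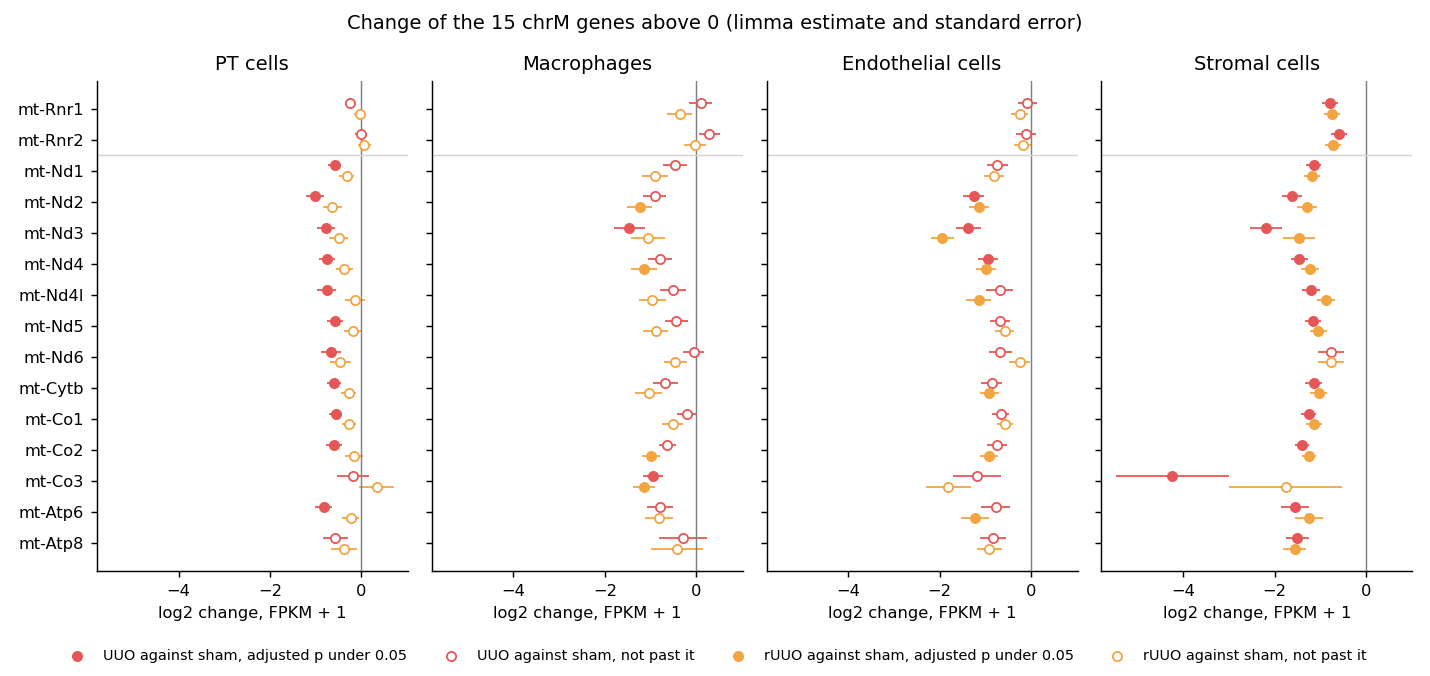
log2 change with its standard error from limma for the 15 chrM genes in UUO against sham (red) and rUUO against sham (orange) in each population, where filled points have an adjusted p under 0.05 and the rRNA genes stand above the grey line. In UUO against sham all 13 protein points lie left of 0 in each population, and in stromal cells both rRNA points do so as filled points. In rUUO against sham mt-Co3 in PT cells, at 0.33, lies right of 0 and of both rRNAs.

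Outside mt-Nd2 and mt-Nd3, complex I was represented by mt-Nd1, mt-Nd4 and mt-Nd5, which line its proton path in the membrane, and by the small subunits mt-Nd4l and mt-Nd6. mt-Nd1 ran from 10606 to 11717 FPKM in PT sham, from 6140 to 8648 in UUO and from 7689 to 9846 in rUUO, and the sham range lay above both others. In stromal cells it ran from 2622 to 4234 in sham, from 1090 to 1580 in UUO and from 1216 to 1487 in rUUO, again with sham above both. In macrophages the sham range was 2209 to 2655, the UUO range 1174 to 3430 and the rUUO range 1251 to 1353, and of the latter only the UUO range reached the sham values.

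mt-Nd4 showed the same layout in PT cells, where 11327 to 12865 FPKM were found in sham, against 5514 to 8728 after UUO and 7924 to 10352 after reversal. In endothelial cells it ran from 2194 to 4294 in sham, from 1310 to 1876 in UUO and from 1232 to 1925 in rUUO, without overlap with sham. mt-Nd5 ran from 5646 to 6383 FPKM in PT sham, from 3199 to 4969 in UUO and from 4241 to 6085 in rUUO, so rUUO reached into the sham range. mt-Nd6, the one gene of the other strand, ran from 2802 to 3798 in PT sham and 1382 to 2772 in UUO, but in stromal cells from 450 to 1244 in sham and 240 to 501 in UUO, which overlap.

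After UUO mt-Cytb lay between 9026 and 13233 FPKM in PT cells, and after rUUO between 11447 and 16196, both below the PT sham range given above. In stromal cells it ran from 4002 to 6533 in sham, from 1630 to 2676 in UUO and from 2099 to 2748 in rUUO. In complex IV, mt-Co1 lay between 26103 and 36102 in UUO samples of PT cells and between 34869 and 42585 after reversal, and in stromal cells between 4865 and 6884 and between 5900 and 7018, all below the sham values of the same population. mt-Co2 in macrophages ran from 2428 to 3163 in sham, from 1378 to 2400 in UUO and from 1228 to 1406 in rUUO. Neither range overlapped with sham, though UUO sample 2, at 2400, lay close to it. The gene rests on its split with Gm28661, which is not described by sample. In UUO sample 2 mt-Atp6 took 9.88% and mt-Co3 21.6% of their own pairs, and the part of the split was not tested.

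The ATP synthase subunits varied more. mt-Atp6 ran from 4270 to 6127 FPKM in PT sham, from 2379 to 3807 in UUO and from 3897 to 4831 in rUUO. mt-Atp8, the shortest protein gene, ran from 428 to 724 in PT sham and from 281 to 663 in UUO, which overlap, and from 138 to 333 in stromal sham and 61.3 to 91.3 in stromal UUO, which do not. In macrophages the mt-Atp8 ranges of 54.8 to 168 in sham and 42.6 to 251 in UUO overlapped widely.

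The balance between the classes shifted by a similar number of points in each population. In PT cells the rRNAs took 84.1, 83.1, 85.9 and 85.3% of the chrM sum in UUO, above all sham samples (difference 4.77 percentage points). In macrophages the share was 84.4, 85.8, 86.4 and 84.0% in sham and 90.4, 88.4, 90.8 and 89.8% in UUO (4.71). In stromal cells it was 85.7, 85.5, 85.7 and 84.2% in sham and 91.2, 90.6, 88.7 and 89.2% in UUO (4.63). None of these pairs of groups overlapped, and each had p = 0.0286 in the exact two-sided permutation test and adjusted p = 0.0571 over the 12 surgery comparisons, so none passed 0.05 after adjustment.

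Endothelial cells showed a difference of 4.79, from 85.8, 86.7, 83.1 and 89.1% in sham to 90.6, 91.4 and 90.9% in UUO (exact permutation p = 0.0571, adjusted p = 0.098), again without overlap. Macrophage UUO sample 2, far from its group in level, was at 88.4% and so also above all macrophage sham samples. Adding the values of the nuclear copies to the chrM genes, an alternative taken up once the data had been seen, gave differences of 5.22, 5.13, 4.99 and 4.22 percentage points for PT, macrophage, endothelial and stromal samples. Weighting each gene by its length, as fragments rather than FPKM, gave 4.82, 4.40, 4.48 and 4.44.

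**Figure D4:**
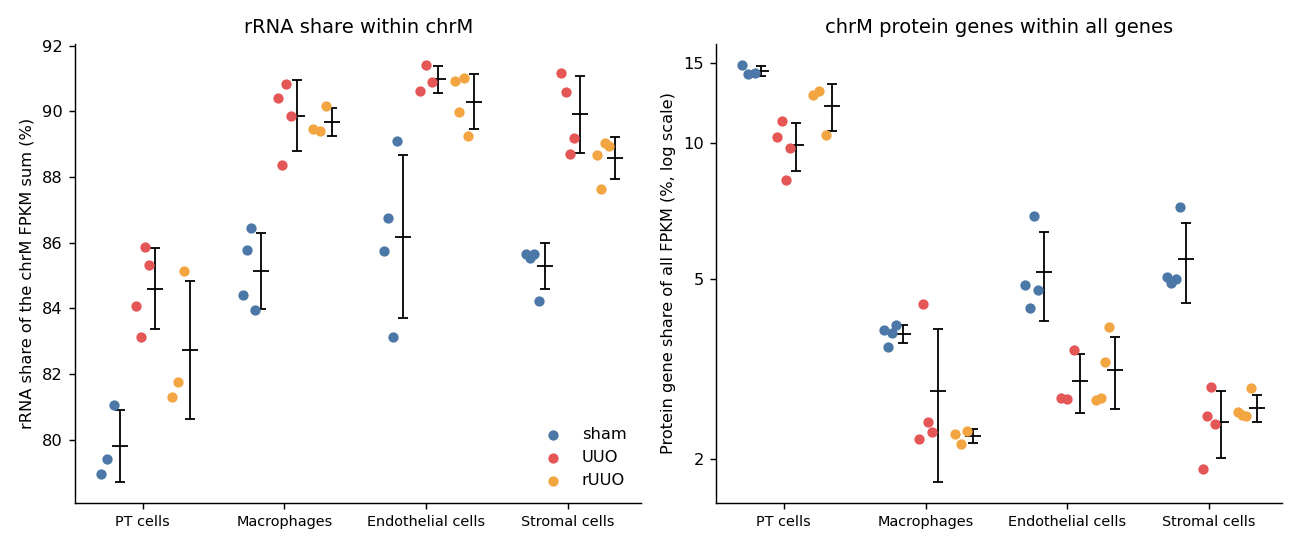
Left, the rRNA share of the chrM FPKM sum in percent. Right, the share of the FPKM sum over all genes taken by the 13 chrM protein genes in percent, on a log scale. Points are samples and bars the mean ± SD of each group, and every UUO sample has a higher rRNA share than every sham sample of its population.

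Within the chrM sum, single genes were then compared with FPKM rescaled so that each sample had the same chrM total. In UUO against sham limma called 6 genes in PT cells, 3 in macrophages, 1 in endothelial cells and 9 in stromal cells, all lower and all protein genes. The rRNAs hold most of the chrM sum, so this rescaling nearly fixes their values. That the calls are protein genes and lower thus largely repeats the shift in rRNA share. The share of all genes called with this rescaling is not given here. mt-Nd2 was called in each population, by −0.80 in PT cells (adjusted p = 0.00252), −1.03 in macrophages (adjusted p = 0.0149), −1.08 in endothelial cells (adjusted p = 0.0206) and −0.87 in stromal cells (adjusted p = 0.00262). As a share of the protein sum alone, mt-Nd2 went from 2.89 to 2.19% in PT cells, from 1.67 to 1.20% in macrophages, from 2.07 to 1.48% in endothelial cells and from 1.91 to 1.53% in stromal cells, as group means. mt-Co1 took 37.4% of the protein sum in PT sham and 38.8% in UUO, and 40.7% and 47.7% in macrophages.

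Position, length and base content of the genes were set beside their changes. Over the 12 plus-strand protein genes, the UUO change had a Pearson r between −0.158 and 0.160 with the start position in the 4 populations, between 0.086 and 0.294 with length and between 0.031 and 0.466 with GC content. Spearman's rho ran from −0.189 to 0.203, from 0.161 to 0.392 and from 0.280 to 0.587, with the highest values for GC content in endothelial (0.587) and stromal cells (0.490). These are descriptions over 12 genes of one genome, which share transcripts, libraries and nuclear copies.

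The 2 rRNAs come from one stretch of the same strand. The ratio of mt-Rnr1 to mt-Rnr2 was 1.09, 1.19 and 0.978 in PT sham and 0.920, 0.936, 0.891 and 0.942 in PT UUO, which do not overlap. It was 0.892 to 1.02 in macrophage sham and 0.723, 1.04, 0.810 and 0.838 in macrophage UUO, where sample 2 was again the exception to a lower range. In stromal cells it ran from 0.867 to 0.972 in sham and from 0.729 to 0.933 in UUO. In endothelial cells the ratio was 0.936 to 0.990 in sham and 0.945 to 0.978 in UUO. These ratios were not tested.

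The rUUO samples were compared with UUO and with sham to ask whether the levels returned after reversal. The 2 comparisons with sham share the sham samples, so the values are given side by side. In PT cells the chrM share was 68.1, 71.3 and 70.0% in rUUO samples 2, 3 and 4, all above the UUO samples and overlapping with sham. It was higher than in UUO by 5.80 percentage points (exact two-sided permutation p = 0.0286, adjusted p = 0.0686) and differed from sham by −1.94 (p = 0.5, where 0.1 is the smallest possible). The protein sum was 112773, 113472 and 88302 FPKM, 1.27 times the UUO mean and 0.838 times the sham mean. Samples 2 and 3 lay between the UUO and sham ranges and sample 4 within the UUO range.

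By limma no chrM gene was called in PT cells, either in rUUO against UUO, where 3.83% of all genes were called in either direction, or in rUUO against sham, where 6.52% were called higher and 0.946% lower. At an unadjusted p under 0.05 there were 5 and 2, beside 2448 and 2453 of all 11416 genes tested. All 15 log2 changes from UUO to rUUO were positive, from 0.08 to 0.63, with a median of 0.32 against −0.27 for all genes. mt-Nd4l (0.63, adjusted p = 0.104) and mt-Atp6 (0.59, adjusted p = 0.086) were the highest. Against sham, mt-Nd2 was at 2443, 2399 and 2111 FPKM in rUUO, below all 3 sham samples (−0.64, SE 0.21, adjusted p = 0.0779). With FPKM rescaled to the same sum outside chrM 2 genes were called in rUUO against UUO, both higher. Without PT UUO sample 3 1 gene was called in rUUO against sham. The share of all genes called is not given for these 2 settings. The rRNA share of chrM was 81.3, 81.8 and 85.1%, and sample 4 alone lay in the UUO range.

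In stromal cells the chrM genes stayed near their UUO level. The chrM share was 22.4, 20.2, 22.7 and 25.9% in rUUO, within or below the UUO range, with a difference from UUO of −1.06 percentage points (exact permutation p = 0.6) and from sham of −14.6 (p = 0.0286, adjusted p = 0.0686). The protein sum was 0.441 times the sham mean. Against sham 13 genes were called lower and none higher by limma, beside 5.57% of all genes lower and 11.6% higher, with medians of −1.18 and 0.15. mt-Co2 was at 1312, 1292, 1288 and 1440 FPKM, below all sham samples (−1.25, SE 0.15, adjusted p = 3.81e-05). Against UUO no chrM gene was called and none had an unadjusted p under 0.05, while 4.17% of all genes were called. Of all 14033 genes tested, 2777 had an unadjusted p under 0.05. Stromal rUUO samples also held 8.7 to 18.1 FPKM of PT markers and 49.1 to 84.9 of thick ascending limb markers, both below the sham ranges, and their part was not tested.

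In macrophages the chrM share was 21.6, 20.4 and 23.5% in rUUO samples 1, 4 and 6, below every sham sample (difference −3.75 percentage points, exact permutation p = 0.0286, adjusted p = 0.0686). The protein sum was 16089, 16163 and 16972 FPKM, also below every sham sample and 0.583 times the sham mean, while the rRNA ratio was 0.882. By limma 4 genes were lower than in sham and none higher, beside 1.55% of all genes lower and 1.89% higher. They were mt-Nd2 (−1.24, adjusted p = 0.025), mt-Co2 (−0.98, adjusted p = 0.0136), mt-Co3 (−1.14, adjusted p = 0.0174) and mt-Nd4 (−1.14, adjusted p = 0.0415). The count was 9 without UUO sample 2, which enters through the shared estimate of spread. It was 0 without rUUO sample 1 or 4, 1 without rUUO sample 6 or sham sample 3 or 4 and 2 without sham sample 1 or 2. Against UUO no chrM gene was called or had an unadjusted p under 0.05, and 0.0% of all genes were called, with 945 at an unadjusted p under 0.05. PT markers summed to 14.3 to 16.7 FPKM in rUUO, below all sham samples, and their part was not tested.

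In endothelial cells the rUUO share was 29.8, 27.2, 36.4 and 36.5%, which overlapped with both other groups. By limma 7 protein genes were lower than in sham and none higher, beside 0.366% of all genes lower and 1.4% higher. mt-Nd3 was the furthest, at 263, 182, 389 and 301 FPKM in sham and 51.0, 85.8, 61.9 and 89.3 in rUUO, with no overlap (−1.95, SE 0.25, adjusted p = 0.000545). The others were mt-Nd2 (−1.14), mt-Nd4 (−0.99), mt-Nd4l (−1.15), mt-Cytb (−0.91), mt-Co2 (−0.93) and mt-Atp6 (−1.23), with adjusted p between 0.0107 and 0.0486 by limma. Of these 7 genes, all but mt-Nd2 and mt-Cytb rest on a split with a nuclear copy. The count was 2 without sham sample 3 or rUUO sample 1, 2 or 4, 3 without sham sample 4 and 4 without sham sample 1. Tubule markers were lower here too. Those of the distal tubule and collecting duct summed to 39.4 to 227 FPKM in sham and 8.8 to 35.7 after reversal, without overlap and with 1 of 3 called lower by limma. Those of the thick ascending limb (131 to 640 and 58.8 to 196) and of PT cells (191 to 288 and 102 to 219) overlapped and none was called. Sham sample 3 had the highest sum of each of these lists, and their part was not tested. Against UUO no chrM gene was called or had an unadjusted p under 0.05, and 0.0597% of all genes were called. Of all 13393 genes tested, 1369 had an unadjusted p under 0.05.

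The rRNA share in rUUO stood above sham in every population. It was 89.5, 89.4 and 90.2% in macrophages (4.52 percentage points above sham), 90.9, 90.0, 91.0 and 89.3% in endothelial cells (4.11) and 88.7, 87.6, 89.0 and 88.9% in stromal cells (3.29), each with exact permutation p = 0.0286 and adjusted p = 0.0571. No sample of these 3 overlapped with its sham group. In PT cells the difference was 2.91 (exact permutation p = 0.1, the smallest possible). From UUO to rUUO the share changed by −1.86 points in PT cells, −0.19 in macrophages, −0.68 in endothelial cells and −1.34 in stromal cells, with exact permutation p between 0.114 and 0.8.

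Whether the change differed between populations was tested as a difference of changes in one limma fit on all samples. For UUO against sham, the change in PT cells minus that in stromal cells was called for 4 chrM genes, all with a smaller fall in PT cells, beside 23.0% of all genes called in that direction. They were mt-Co1 (0.70, SE 0.26, adjusted p = 0.0375), mt-Co2 (0.81, SE 0.26, adjusted p = 0.0188), mt-Nd3 (1.41, SE 0.49, adjusted p = 0.0281) and mt-Co3 (4.06, SE 1.28, adjusted p = 0.0141). With the nuclear copies counted in, mt-Co3 gave 0.35 (adjusted p = 0.388) and 3 genes were called. The count was 1 without PT sham sample 4 or stromal sham sample 4 and 2 without PT sham sample 2 or PT UUO sample 2. With FPKM rescaled to the same sum outside chrM, mt-Co1 (0.58, adjusted p = 0.168) and mt-Co2 (0.69, adjusted p = 0.0732) were not called. The 15 genes had a median of 0.60, against 0.51 for all genes, and 4 of 15 is near the share of all genes called.

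No chrM gene was called for PT cells minus macrophages or PT cells minus endothelial cells in UUO against sham, where 15.5% and 11.1% of all genes were called, and none had an unadjusted p under 0.05. Of all 14332 genes tested, 4036 and 3527 had such a p. For rUUO against UUO no chrM gene was called against macrophages, endothelial cells or stromal cells, beside 0.781%, 2.09% and 7.43% of all genes. There 7, 3 and 0 chrM genes had an unadjusted p under 0.05, beside 1824, 2604 and 3358 of all 14332 genes tested. A call in one population and not in another is therefore not shown to be a different change.

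The values of mt-Co3 depended on the split with its nuclear copy. In stromal UUO mt-Co3 stood at 0.45, 156, 411 and 446 FPKM, and Gm28437 stood at 1228, 1080, 1035 and 788. In sample 1 nearly the whole pair was assigned to the copy. The sum of the pair was 1228, 1236, 1446 and 1234 FPKM, and 2196, 2386, 2714 and 3281 in stromal sham. Counted together, the log2 change was −1.03 (SE 0.15, adjusted p = 0.000131 by limma) in place of −4.24 (SE 1.24, adjusted p = 0.0189). Over all 44 samples mt-Co3 took between 0.0366 and 88.5% of its pair and mt-Atp6 between 9.88 and 53.4% of its pair.

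**Figure D5:**
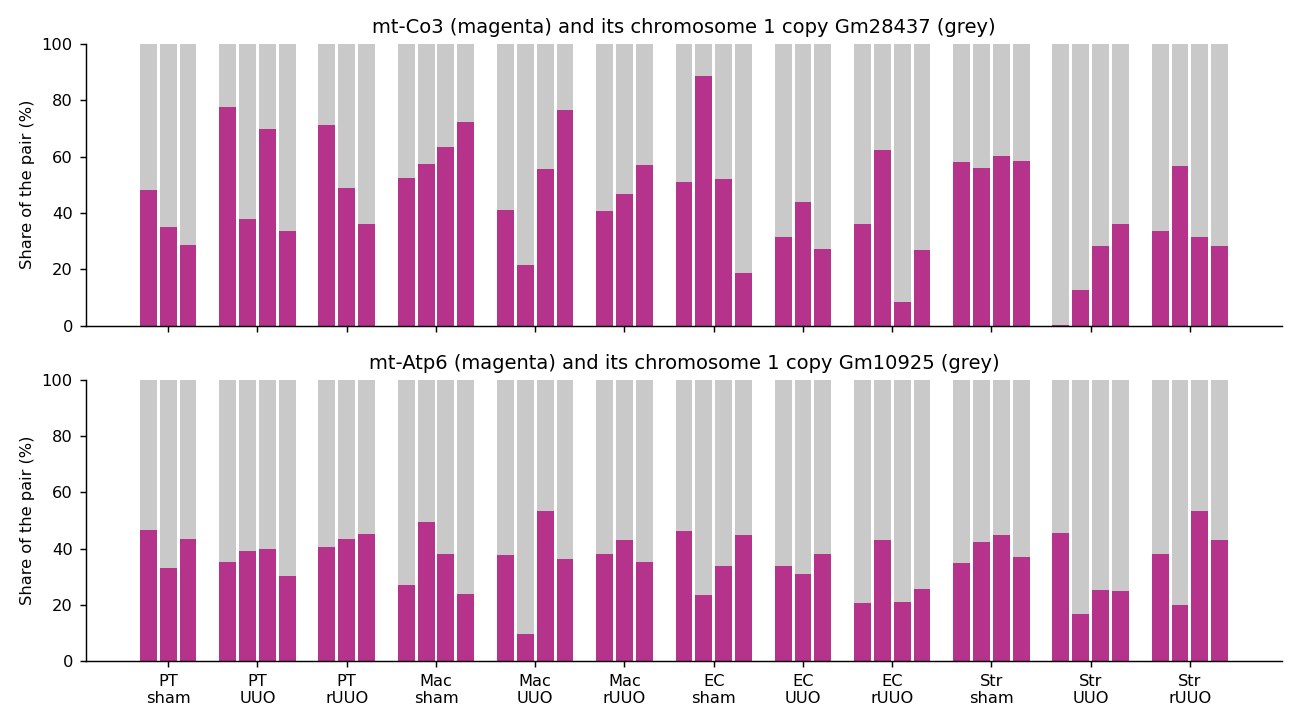
Percent of the FPKM of each pair assigned to the chrM gene (magenta) and to the chromosome 1 copy (grey) in each sample, for mt-Co3 with Gm28437 above and mt-Atp6 with Gm10925 below. The split differs between samples of one group, and mt-Co3 takes 0.0366% of the pair in stromal UUO sample 1.

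Adding the pairs made the replicates more alike. The median SD of the log2 value within groups fell from 0.465 for mt-Co3 to 0.232 for its pair and from 0.414 for mt-Atp6 to 0.228, near the 0.208 of mt-Co1. For mt-Nd3 the median SD was 0.369 and the highest 0.964, and its split with Gm28438 was not described by sample. With the copies counted in, mt-Co3 also fell in PT UUO (−0.67, SE 0.17, adjusted p = 0.00933), which brought the count there to 12, and in macrophage UUO it was no longer called (−0.48, adjusted p = 0.17). The mt-Atp6 pair had means of 12726 FPKM in PT sham and 8211 in PT UUO, where mt-Atp6 alone had 5232 and 2972. In endothelial sham and rUUO the pair had means of 3749 and 2149, and mt-Atp6 alone 1408 and 577. mt-Co1 took 93.8 to 99.4% of the length-weighted pair with Gm29216 in all samples. That copy holds 6 mismatches and covers less of its length. Gm13340 on chromosome 2, which has 1545 bases as mt-Co1 does, was not aligned and does not enter this pair.

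Nuclear genes that make, keep and use mitochondrial RNA were then described. In PT cells with UUO, none of the 8 tested transcription genes passed limma's test (median 0.38, against 0.51 for all genes). The median was 0.40 for 10 genes for replication and upkeep of the DNA, of which Rrm2b, a ribonucleotide reductase subunit, rose (1.51, adjusted p = 0.00378). Among 19 genes for processing and decay of the RNA (median 0.12), Hsd17b10, a subunit of mitochondrial RNase P, and Rexo2, an exonuclease for short RNA, rose (0.64 and 0.58, adjusted p = 0.0266 and 0.0291). Among 8 regulators of biogenesis (median 0.32), the fatty acid receptor Ppara fell (−1.43, adjusted p = 0.00812) and Gabpb1 rose (1.07, adjusted p = 0.0288).

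Of the 21 nuclear core subunits of complexes I, III, IV and V, Ndufs1 of complex I (−0.82, adjusted p = 0.00586) and Uqcrc1 of complex III (−0.77, adjusted p = 0.0206) fell in PT UUO and none rose, beside the 4.91% and 27.9% of all genes, with a median of −0.15. Of the 4 complex II subunits Sdhc fell (−0.76, adjusted p = 0.0111) and the median was −0.47. The nuclear partners thus had a median below that of all genes, as the chrM protein genes did, with fewer calls. In PT rUUO against sham 1 gene of these 6 lists passed, Ndufs1 (−0.74, adjusted p = 0.0445 by limma).

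In stromal UUO Polrmt, the RNA polymerase of mitochondria, fell (−1.11, adjusted p = 0.0129 by limma) as 1 of 9 transcription genes tested, and rose from UUO to rUUO (1.51, adjusted p = 0.013). No gene for replication passed, and Rexo2 rose (1.07, adjusted p = 0.00147) among 19 for RNA processing. Ppargc1a and Ppargc1b, coactivators of mitochondrial biogenesis, fell by 2.16 and 1.77 on the log2 scale (adjusted p = 0.00968 and 0.00281), Nrf1 fell by 1.03 (adjusted p = 0.0114) and Pprc1, a related coactivator, rose (0.92, adjusted p = 0.00624). Of the 21 nuclear core subunits 6 fell and none rose, beside the 13% and 13.4% of all genes, with a median of −0.50, among them Uqcrc1 (−1.16) and Atp5a1 (−0.81). Of the 4 complex II subunits Sdhb (−0.85) and Sdha (−0.61) fell. In stromal rUUO against sham 4 of the 21 core subunits were lower, beside 5.57% of all genes. There Ppargc1a was lower (−2.21, adjusted p = 0.0124 by limma) and Pprc1 higher (1.37, adjusted p = 0.000473), and among the RNA processing genes Rexo2 was higher (0.66, adjusted p = 0.0449) and Tbrg4 lower (−0.85, adjusted p = 0.0419).

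In macrophages no gene of these 6 lists passed limma's test in UUO or rUUO against sham, and the nuclear core subunits had medians of 0.13 and 0.10. In endothelial cells the complex II subunit Sdhd fell with UUO (−1.02, adjusted p = 0.0186), and no other gene of the lists passed in UUO or rUUO against sham. Between populations in sham, where all 15 chrM genes were higher in PT cells, 20, 15 and 16 of the 21 nuclear core subunits were higher in PT cells than in macrophages, endothelial cells and stromal cells, with medians of 1.40, 0.76 and 0.74, and none was lower. All 4 complex II subunits were higher in each case. Of the 19 RNA processing genes 1, 2 and 1 were higher and 4, 5 and 2 lower, and of the 8 biogenesis regulators 2, 2 and 2 were higher and 4, 4 and 5 lower. All counts called lower here stand beside 52.4%, 53.6% and 59.7% of all genes called lower in PT cells against macrophages, endothelial cells and stromal cells, so they do not set these lists apart. All counts called higher here stand beside 12.6%, 8.73% and 7.89% of all genes called higher, in the same order. Of the 10 replication genes 2, 0 and 0 were higher and 6, 5 and 4 lower, and of the 9 tested transcription genes none was higher and 2, 3 and 3 were lower.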

How the data were processed

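Complementary DNA for sequencing was amplified from RNA of sorted cells by the Ovation RNA-Seq System V2 kit. Per the labels, the submitters' processing notes name FastQC, Bowtie2, RSEM and DESeq2, without versions, and the mm10 build. The authors deposited FPKM per gene, rounded to 2 decimals, in 1 table of 46 value columns. Of these, 44 were used, and 2 columns that share a sample name were not. Both carry the name CD31+ UUO 3, and no column carries the name of the labelled sample LTL+ Sham 3. PT sham and endothelial UUO therefore hold 3 samples each. Shares were computed from the FPKM as deposited. limma 3.58.1 in R 4.3.3 was fitted per population on log2(FPKM + 1) with a mean-variance trend, after genes averaging under 1 FPKM were left out, adjusted over all genes tested with a threshold of 0.05, and fold changes on this scale are understated for low genes. Populations were compared in sham samples, and differences of changes on all samples. Scripts were tested on simulated data. Python 3.11.15, scipy 1.17.1 (exact permutation tests) and matplotlib 3.10.9 were used. Alternatives were another pseudocount, no filter, other scalings, quantile normalization, the replicate block, leaving out samples and, added later, pooling nuclear copies. Named genes were the 15 chrM genes above 0 and, of each list, those of the largest rise and fall that passed. Further listed genes that passed are named after their values were seen. The members and lists were chosen with earlier results of these data known. Sequences are those of GRCm38. Same-numbered samples deviated together (r over 0.1) in 1 of 8 pairs within PT cells, in none within the other populations and in 2 of 21 across sham populations, so numbers were not taken to pair samples.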

Additional observations from a re-analysis of the deposited data

Results flagged for a closer look

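Among the samples of a group, a value was picked out where its gap to the nearest other sample, divided by the range of the group, was above Dixon's 95% critical value for 4 samples. Over 17 measures and 8 groups of 4 samples, 136 in all, 19 values were picked out, of which 7 came from stromal sham sample 4 and 3 from macrophage UUO sample 2. Chance alone gives about 1 in 20 groups, and the measures share samples.

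Stromal sham sample 4 was highest for the chrM share (45.8% against 34.0 to 35.3%, gap over range 0.894), mt-Nd2 (1098 FPKM against 556 to 591, 0.912), mt-Nd4l (1621 against 923 to 963, 0.923), mt-Nd4 (4694 against 2665 to 2867, 0.871), mt-Nd5 (2086 against 1224 to 1305, 0.879) and mt-Cytb (6533 against 4002 to 4310, 0.849). It was lowest for the rRNA share of chrM (84.2% against 85.5 to 85.7%, 0.919). Its thick ascending limb marker sum was 314 FPKM, against 241 to 298 in the other stromal sham samples. Its PT marker sum of 39.8 lay within their 34.6 to 59.4. The distal tubule and collecting duct sum of 171 lay within their 128 to 297. The part of these markers was not tested.

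Macrophage UUO sample 2 was highest for mt-Co1 (16125 FPKM against 8002 to 8733, gap over range 0.875), mt-Nd4 (2638 against 958 to 1121, 0.845) and mt-Cytb (4507 against 1588 to 1875, 0.841). Macrophage sham sample 3 had the highest chrM share of its group (28.0% against 24.6 to 24.9%, 0.926).

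PT UUO sample 3 was lowest for both rRNAs, mt-Rnr1 (192799 FPKM against 221870 to 227720, 0.844) and mt-Rnr2 (216314 against 240219 to 243355, 0.890). Stromal rUUO sample 6 was highest for mt-Co2 (1440 against 1288 to 1312, 0.838) and mt-Cytb (2748 against 2099 to 2172, 0.873), and stromal rUUO sample 1 was lowest for mt-Nd3 (107 against 121.5 to 122.7, 0.931). Endothelial sham sample 2 was lowest for mt-Atp6 (640 against 1520 to 1785, 0.843), endothelial sham sample 3 highest for mt-Nd4l (2076 against 993 to 1076, 0.891) and stromal UUO sample 1 lowest for mt-Nd5 (502 against 682 to 712, 0.880).

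The UUO change differed between PT and stromal cells in the test of that difference for mt-Co1 (0.70 on the log2 scale), mt-Co2 (0.81), mt-Nd3 (1.41) and mt-Co3 (4.06), with the limits given for them in the report.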

How the results depend on the processing

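Depth in reads was unknown, the sample numbers allowed no permutation p below 0.0286, and fragments shared with nuclear copies, overlapping genes and the unknown strand limit single-gene values. The cause of the shifts listed here was not tested, apart from the smaller samples and the longer list of genes that some settings bring by construction.

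Counts of chrM genes called moved as follows. The share of all genes called is not given for these settings or for fits with samples left out, so the counts lack that background. Without a filter on low values, which adds genes to the adjustment, PT UUO against sham gave 2 in place of 11, macrophages 0 in place of 2 for UUO and 0 in place of 4 for rUUO, and endothelial cells 0 in place of 3 and 1 in place of 7. Rescaled to the same chrM sum, the counts were 6 for PT UUO, 1 for macrophage rUUO, 1 and 2 for endothelial UUO and rUUO, 9 and 3 for stromal UUO and rUUO (14 and 13 as deposited) and 9 for PT against stromal sham (15). Rescaled to the same sum outside chrM, PT rUUO against UUO gave 2 in place of 0 and the difference of UUO changes between PT and stromal cells 2 in place of 4. Quantile normalization gave 4 for PT UUO, 1 for PT rUUO against sham (0), 2 for macrophage rUUO, 5 for endothelial UUO and 10 for the PT and stromal difference. A fit on all 4 populations gave 5 for PT UUO, 4 and 7 for macrophage UUO and rUUO and 6 for endothelial UUO. Macrophage UUO gave 4 with FPKM rescaled to the same sum (TPM) and 1 with the nuclear copies added.

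With the replicate number as a block, PT rUUO against UUO gave 1 call, macrophage rUUO against sham 1, endothelial UUO 1 and endothelial rUUO against sham 4, and no other count moved by over 1.5 times. Same-numbered samples deviated together (r over 0.1) in 1 of 8 pairs within PT cells, in none within the other populations and in 2 of 21 across sham populations (highest r 0.159), against 0 of 63 differently numbered sham pairs, which did not meet the bar of every pair for taking the numbers as pairs.

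Signs turned as follows. With protein genes alone in the numerator, the share difference was −0.956 percentage points in macrophage UUO against sham, and 0.180 and 0.185 in endothelial and stromal rUUO against UUO. Under quantile normalization mt-Nd1 and mt-Nd5 were at 0.023 and 0.027 in PT UUO, and mt-Rnr2 at −0.069 in PT against endothelial and −0.069 in PT against stromal sham. Rescaled to the same chrM sum, mt-Rnr2 was at 0.16 in stromal UUO, mt-Rnr1 and mt-Rnr2 at 0.037 and 0.071 in stromal rUUO against sham, mt-Rnr1, mt-Rnr2 and mt-Co3 at −0.015, −0.18 and −0.37 in PT against macrophage sham, mt-Rnr1 and mt-Rnr2 at −0.021 and −0.20 in PT against endothelial sham, and mt-Rnr2 and mt-Co3 at −0.22 and −0.27 in PT against stromal sham.

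Leaving out 1 sample at a time, the counts ran from 7 to 12 for PT UUO, 0 to 1 for PT rUUO against sham, 0 to 9 for macrophage UUO and 0 to 9 for macrophage rUUO against sham, 1 to 5 for endothelial UUO, 2 to 7 for endothelial rUUO against sham and 1 to 4 for the PT and stromal difference. The chrM share difference ran from −1.57 to 3.51 points in macrophage UUO, turning without UUO sample 2, and from −2.46 to 2.15 in endothelial rUUO against UUO, turning without UUO sample 4 (2.15) or rUUO sample 1 (0.404) or 2 (1.26). PT minus macrophage, endothelial and stromal sham ran from 44.2 to 47.6, 32.1 to 36.0 and 32.3 to 37.02. The rRNA share difference ran from −0.689 to 0.136 in macrophage rUUO against UUO, turning without UUO sample 3, from 4.21 to 5.04 in stromal UUO and from −1.74 to −0.914 in stromal rUUO against UUO. For PT minus macrophage sham it ran from −5.96 to −4.91 and for PT minus stromal sham from −6.08 to −5.04. Groups of PT against others that lose 1 sample can no longer all reach an adjusted p of 0.05.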
